A study of Mus musculus with 138 samples.

Results

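The mesenchyme of the sagittal suture was compared between embryonic days E18.5 and E16.5 in laser-captured tissue of wild-type C57BL/6J mouse embryos. The suture mesenchyme (SM) is the soft tissue between the edges of the 2 parietal bones. The comparison took the 10 libraries whose labels give the sagittal suture and its SM, 5 at E18.5 and 5 at E16.5, out of 138 samples in the series. The libraries made from complete sutures were left out. Each library came from 1 embryo, with no allele other than wild type and no treatment given for either group, and the ages are the same as those of the SM and osteogenic front (OF) libraries of the coronal, frontal and lambdoid sutures. The litter labels were read as a litter name followed by an embryo number. On that reading replicates 1 and 2 at E16.5 shared a litter, as did replicates 3 to 5 at E16.5, replicates 1 to 3 at E18.5 and replicates 4 and 5 at E18.5. No litter spans both ages, so age and litter cannot be told apart. The litter name was 10_14_17WL2 for E18.5 replicates 1 to 3 and 1_26_19WL1 for replicates 4 and 5. At E16.5 the names were 1_24_19WL1 and 1_24_19WL2. The permutation p-values below rest on these 10 libraries, from 2 litters an age. The main edgeR p-values use a spread estimated over 100 libraries, most of them from other sutures.

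Calvarial sutures are fibrous joints in which mesenchymal progenitors keep the bones apart while feeding new osteoblasts to the OFs, the advancing bone edges. The sagittal suture lies in the midline over the brain, with dura mater below and hypodermis above, and remains an unmineralized gap through late gestation. Progenitors that leave the cell cycle may stay as mesenchyme or enter the osteoblast lineage, which is marked in turn by Runx2, Sp7, Alpl, Ibsp and Spp1. Hedgehog, BMP, FGF, Wnt and Notch signals are known regulators of this balance, and Hhip binds and sequesters hedgehog ligands.

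The libraries held 13144810 to 16239179 exonic counts at E16.5 and 13162255 to 16295927 at E18.5, so depth did not separate the ages. Levels are given as CPM, counts scaled to library size with TMM factors. Suture mesenchyme markers summed to 5376 to 5938 CPM at E16.5 and 5142 to 5745 CPM at E18.5, and osteoblast genes, which include the type I collagen genes, to 52500 to 60710 CPM and 52300 to 69940 CPM. These ranges overlapped, with osteoblast sums highest in E18.5 replicates 4 and 5, and keratinocyte markers summed to at most 6.13 CPM in every library. Without E18.5 replicates 1 to 3 the osteoblast sum differed by 0.317 on the log2 scale (exact permutation p = 0.0476). In the parietal OF this sum was 45900 to 59280 CPM at E16.5 and 80520 to 108100 CPM at E18.5. At E16.5 it therefore did not separate bone edge from mesenchyme. Mitochondrial genes took 13.7% to 16.8% of counts at E16.5 and 16.2% to 22.1% at E18.5 (exact permutation test, two-sided, p = 0.0159).

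The 2 litters at E18.5 differed in tissue markers and across genes. Across genes, the log2 CPM of E18.5 replicates 1 to 3 correlated with those of replicates 4 and 5 at r = 0.964 to 0.973, against 0.978 to 0.982 within the E18.5 litters and 0.980 to 0.987 among the E16.5 libraries. Between the ages r was 0.964 to 0.971 for E18.5 replicates 1 to 3 and 0.970 to 0.975 for replicates 4 and 5. The 12 neural and Schwann markers summed to 171.6, 171.3 and 242 CPM in E18.5 replicates 1 to 3. The sums were 31.0 and 29.2 CPM in replicates 4 and 5 and 23.9 to 40.1 CPM at E16.5. Sox10, which marks Schwann cells, had at most 2 counts in any of the 10 libraries, whereas Dcx, a gene of migrating neurons, had 835 to 1371 counts in E18.5 replicates 1 to 3 and 2 to 55 counts elsewhere. Erythroid markers followed the same split, with 1367, 1385 and 4857 CPM in E18.5 replicates 1 to 3, 199 and 189 CPM in replicates 4 and 5 and 507 to 754 CPM at E16.5. The parietal OF libraries of the same 3 embryos carried more of the neural list as well, with sums of 83.4 to 147 CPM against 17.04 and 21.7 CPM in the OF of the other litter. Hypodermis and dermis markers summed to 440.1 to 546 CPM at E16.5 and 580.2 to 696 CPM at E18.5 (exact permutation p = 0.00794). Most of that sum was Col14a1, at 386 to 503 CPM and 519.5 to 652 CPM, and 6 of the 9 markers tested had negative values (median log2 fold change -0.16). Dura and meninges markers summed to 84.1 to 87.0 CPM and 72.0 to 80.6 CPM (exact permutation p = 0.00794). The largest share was Foxc1, which is on the suture mesenchyme list too, at 34.3 to 41.8 CPM and 24.2 to 31.6 CPM. Of the 13 dura and meninges markers tested 7 were positive and 6 negative (median 0.04), with Fxyd5 at 8.91 to 14.02 CPM and 13.7 to 21.4 CPM. Macrophage markers summed to 164 to 189 CPM and 185 to 214 CPM and mast cell markers to 91.5 to 132 CPM and 96.7 to 267 CPM (exact permutation p = 0.0159 and 0.0317). Without E18.5 replicates 4 and 5 these p were 0.0536 and 0.125, and that of mast cells was 0.0556 to 0.0714 without E16.5 replicate 2, 4 or 5 or E18.5 replicate 1 or 5. The 100 most abundant genes of a library took 40.8% to 42.9% of counts at E16.5 and 44.0% to 46.7% at E18.5 (exact permutation p = 0.00794). The part of these tissues and of blood and neural material in the age changes was not tested, and results are also given without each E18.5 litter.

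**Figure D1:**
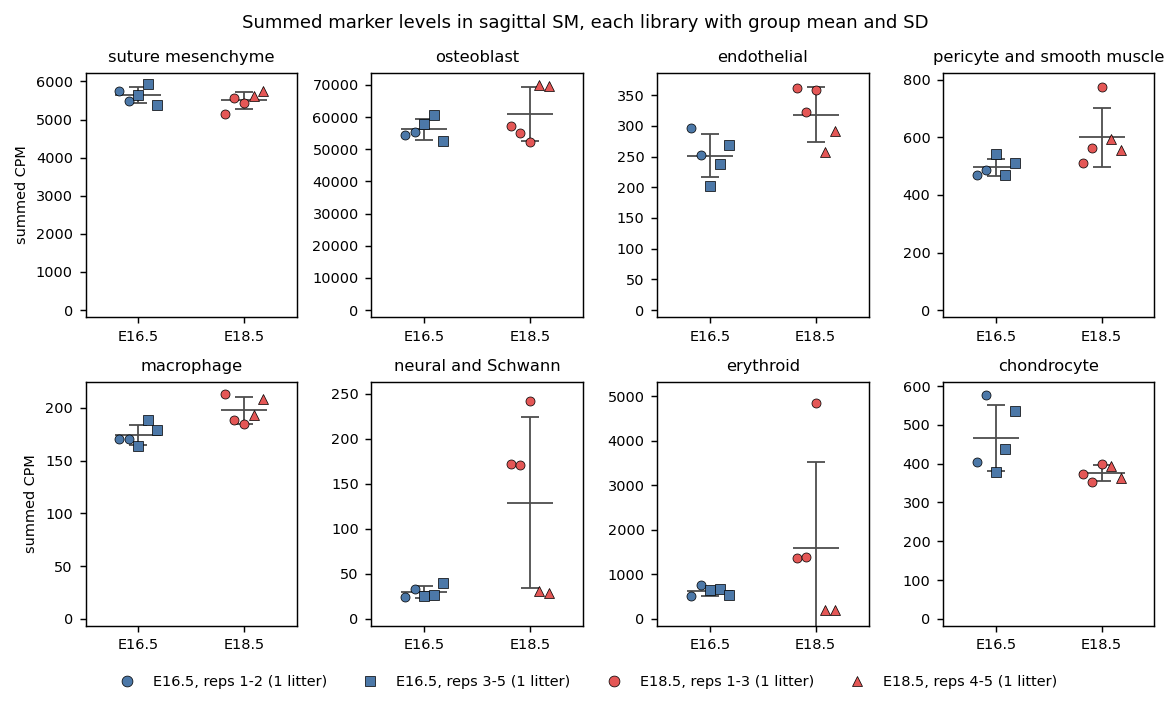
Summed CPM of 8 marker lists in the 10 sagittal SM libraries by age, with 1 point per embryo, shape and colour giving the litter, and bars giving the group mean and SD (n = 5; the lower end of the E18.5 erythroid bar falls below the axis). The neural and erythroid sums are high in E18.5 replicates 1 to 3 alone (171.3 to 242 CPM and 1367 to 4857 CPM), while the suture mesenchyme sums of the ages overlap.

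Between E16.5 and E18.5 genes of cell division fell in the sagittal SM, while Socs2, Rgs5, Lrrc15 and Igfbp3 were among those that rose. Of 19768 genes tested, 104 rose and 117 fell at an adjusted p under 0.05 (0.526% and 0.592%), together 1.12% of genes. The adjusted p came from the quasi-likelihood test of edgeR, corrected over all genes by the Benjamini-Hochberg method. An unadjusted p under 0.05 was reached by 1325 genes (6.7%), 716 of them positive (3.62%) and 609 negative (3.08%). DESeq2 called 290 genes (1.47%), 141 of them falls (0.713%), and limma-voom 175 (0.885%), 104 of them falls (0.526%). A log2 fold change of at least 1 in size was reached by 78 of the rises and 50 of the falls, and the median over all genes was 0.01. Of the falls, 116 of 117 had no overlap between the CPM of the ages, against 3.75% of all genes without overlap and higher at E16.5. Of the rises, 66 of 104 had no overlap, against 3.28% of all genes without overlap and higher at E18.5. In 27 of the 104 rises, E18.5 replicates 1 to 3 were all above the E16.5 range while neither replicate 4 nor 5 was. Leaving out E18.5 replicates 1 to 3 left 59 genes called, 16 of the rises and 37 of the falls among them, and leaving out replicates 4 and 5 left 159, 84 of the rises and 43 of the falls among them. Leaving out E16.5 replicates 3 to 5 left 22 calls, 4 rises and 18 falls. Leaving out a single library left 133 to 207 calls, with 133 without E18.5 replicate 1 and 141 without E16.5 replicate 4. Scaling by total counts without TMM gave 78 rises and 147 falls. A fit to the 10 sagittal SM libraries alone, whose common dispersion was 0.0484 in place of 0.224, called 1626 genes (8.23%), 836 positive (4.23%) and 790 negative (4.0%), including 102 of the 104 rises and all 117 falls. These shares of all genes are the ones to set beside the counts for lists of genes below.

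**Figure D2:**
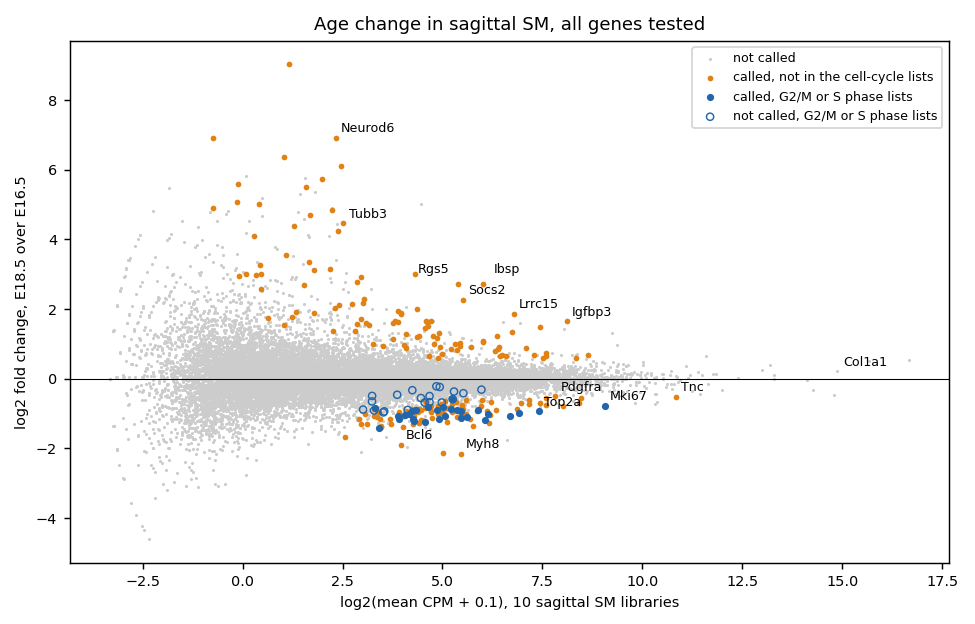
Log2 fold change of E18.5 over E16.5 in sagittal SM (vertical axis) against the log2 of the mean CPM of the 10 libraries plus 0.1 (horizontal axis) for the 19768 genes tested, with called genes in colour and the genes of the G2/M and S phase lists in blue. All 49 genes of the 2 cell-cycle lists lie below 0, and the neural genes Neurod6 and Tubb3 are among the highest called fold changes.

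Genes that work in G2 and mitosis fell together. Of the 26 genes of the G2 and M phase list, 22 fell and none rose, with a median log2 fold change of -1.02; at an unadjusted p under 0.05 all 26 were negative, and 25 of 26 had no overlap between the ages. DESeq2 called 23 falls, limma-voom 19, and the fit to the 10 libraries alone 26, each with 0 rises. The list lost members but not its direction without a litter: 12 fell without E18.5 replicates 1 to 3 (median -1.19), 10 without E18.5 replicates 4 and 5 (median -0.91), 15 without E16.5 replicates 1 and 2 (median -0.98) and 6 without E16.5 replicates 3 to 5 (median -1.05). The summed level of the list was 1961 to 2219 CPM in the E16.5 libraries and 888 to 1299 CPM at E18.5, with no overlap (exact permutation test, two-sided, p = 0.00794, the smallest that 5 against 5 libraries allow). In bulk tissue, a lower share of dividing cells and less of these transcripts in each cell cannot be told apart.

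Plk1, the kinase that drives mitotic entry and spindle assembly (chr7:122159439-122169873, mm10), had 12.2, 15.03, 18.6, 14.2 and 16.6 CPM at E16.5 and 4.67, 6.11, 8.89, 5.07 and 4.26 CPM at E18.5 (log2 fold change -1.40, SE 0.27, edgeR adjusted p = 0.000497). Ccnb2, a mitotic cyclin, had 32.0, 36.1, 29.9, 36.1 and 32.3 CPM at E16.5 and 11.4, 20.1, 15.4, 14.6 and 9.02 CPM at E18.5 (log2 fold change -1.24, SE 0.24, edgeR adjusted p = 0.000747). Cdk1, the kinase that mitotic cyclins activate (chr10:69335146-69352938, mm10), had 23.5, 26.8, 28.4, 30.7 and 26.8 CPM at E16.5 and 9.87, 11.5, 14.6, 11.6 and 11.3 CPM at E18.5 (log2 fold change -1.21, SE 0.22, edgeR adjusted p = 0.000288). For each of these genes every E18.5 library of either litter was below every E16.5 library. For Plk1 the rule that named it required this. Plk1 and Ccnb2 were not called without E16.5 replicates 3 to 5. Kif11, the motor that pushes spindle poles apart, had 77.8, 99.7, 92.8, 102 and 91.7 CPM at E16.5 and 38.4, 50.6, 52.3, 34.4 and 29.7 CPM at E18.5 (log2 fold change -1.18, SE 0.18, edgeR adjusted p = 1.66e-05). Top2a, which untangles sister chromatids, went from 223 ± 14.1 CPM at E16.5 to 117 ± 16.9 CPM at E18.5 (SD, n = 5) (log2 fold change -0.94, SE 0.17, edgeR adjusted p = 0.000219). Mki67, a marker of cycling cells, went from 672 ± 46.8 CPM at E16.5 to 392 ± 46.5 CPM at E18.5 (SD, n = 5) (log2 fold change -0.78, SE 0.21, edgeR adjusted p = 0.0448). The call of Mki67 was lost when any 1 of the 10 libraries was left out (edgeR adjusted p 0.0567 to 0.135). The 4 members that did not pass were Aurka (-0.94, edgeR adjusted p = 0.0983), Aurkb (-0.90, 0.0862), Kif20a (-0.91, 0.163) and Ube2c (-0.68, 0.152), all negative. Mitotic genes outside the list stood among the largest falls as well, including the kinetochore genes Ndc80 (-1.39, edgeR adjusted p = 0.00128), Sgo2a (-1.40, 0.00581) and Pmf1 (-1.29, 0.0311). Pmf1 was called with E16.5 replicate 3 or E18.5 replicate 2 left out, and lost its call without any 1 of the other 8 libraries (edgeR adjusted p up to 0.104). The checkpoint kinase Ttk (-1.29, 0.000196), the spindle genes Dlgap5 (-1.29, 8.57e-05), Kif2c (-1.40, 0.00699) and Troap (-1.29, 0.00854) were among them too. Shcbp1 (-1.35, 0.00661) and Iqgap3 (-1.28, 0.000126) fell as well. Of these 9 genes Ndc80, Sgo2a, Pmf1, Troap and Shcbp1 were not called without E18.5 replicates 1 to 3 (edgeR adjusted p 0.0516 to 0.497). Sgo2a, Pmf1, Kif2c and Troap were not called without replicates 4 and 5 (edgeR adjusted p 0.164 to 0.31), Kif2c also not without replicate 4 alone and Troap without replicate 5 alone. Without E16.5 replicates 3 to 5, Ttk, Dlgap5 and Iqgap3 alone of the 9 were called.

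Promoters of the fallen G2 and M phase genes are shown because many genes of this phase share 2 short elements, the cell cycle genes homology region (CHR, TTTGAA) and the CCAAT box. RefSeq start sites (GRCm38.p6) were available for 20 of the 22 genes, with windows from 250 bases before to 50 bases after the start. TTTGAA or its reverse complement TTCAAA was in the window of 15 of 20 (75.0%), against 14.7% of the 11921 tested genes with a window. CCAAT or its reverse complement ATTGG was in 17 of 20 (85.0%), against 42.4%. The match is a description of these letters and no factor was measured. The 100 bases before the start are printed 5′ to 3′ on the gene's strand, with CHR and CCAAT letters of either orientation in capitals, for Cdk1 at chr10:69352913-69353012 on the minus strand, Kif11 at chr19:37376282-37376381 on the plus strand, Cdc20 at chr4:118437344-118437443 on the minus strand and Top2a at chr11:99024190-99024289 on the minus strand.
Cdk1: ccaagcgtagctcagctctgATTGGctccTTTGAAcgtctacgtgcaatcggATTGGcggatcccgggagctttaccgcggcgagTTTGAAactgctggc
Kif11: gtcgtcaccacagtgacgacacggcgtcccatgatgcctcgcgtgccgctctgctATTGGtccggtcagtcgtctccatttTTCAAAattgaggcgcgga
Cdc20: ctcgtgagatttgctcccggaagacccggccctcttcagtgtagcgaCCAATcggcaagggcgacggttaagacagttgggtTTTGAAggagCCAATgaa
Top2a: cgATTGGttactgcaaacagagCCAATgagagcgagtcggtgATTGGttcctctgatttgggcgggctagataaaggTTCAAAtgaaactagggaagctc
In Cdk1 and Cdc20 the last TTTGAA begins 15 and 18 bases before the start, and in Kif11 and Top2a the last TTCAAA begins 19 and 23 bases before it. Not all the fallen genes had this arrangement. In Mki67 TTTGAA begins 98 bases before the start. The 100 bases before the start of Mki67 and of Ccnf hold neither CCAAT nor ATTGG. Cdc20, which activates the anaphase-promoting complex, fell by 1.16 on the log2 scale (edgeR adjusted p = 0.00387).

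Genes of DNA replication moved in the same direction by less. Of the 23 genes of the S phase list 7 fell and none rose (median -0.65), and at an unadjusted p under 0.05 there were 18 negative and 0 positive values. Limma-voom called 3 falls, DESeq2 8 and the 10-library fit 18, and 2 were called with either E18.5 litter left out, 4 without E16.5 replicates 1 and 2 and 1 without E16.5 replicates 3 to 5. The 7 were Gins2 (-1.04), Uhrf1 (-0.93), Rrm1 (-0.91), Rrm2 (-0.88), Cdc45 (-0.84), Tyms (-0.80) and Pole (-0.80), which take part in origin firing, nucleotide supply, polymerization and the copying of DNA methylation. The call of Gins2 was lost without E16.5 replicate 2, 3, 4 or 5 or E18.5 replicate 1, 2 or 3 (edgeR adjusted p up to 0.166). Uhrf1, which recruits the maintenance methyltransferase, had 18.9, 28.9, 24.6, 25.98 and 23.4 CPM at E16.5 and 12.9, 13.7, 15.4, 12.4 and 9.72 CPM at E18.5 (log2 fold change -0.93, SE 0.17, edgeR adjusted p = 0.000362). The values of the helicase subunits were smaller and did not pass, from Mcm2 (-0.68, edgeR adjusted p = 0.0635) to Mcm4 (-0.22, 1.0). Of the 12 cyclin-dependent kinase inhibitors and quiescence genes none was called by edgeR, DESeq2 or limma-voom, beside 1.12%, 1.47% and 0.885% of all genes. Of these 12, 3 had an unadjusted p under 0.05, beside 6.7% of all genes. The 10-library fit called 3 of them, beside 8.23% of all genes.

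**Figure D3:**
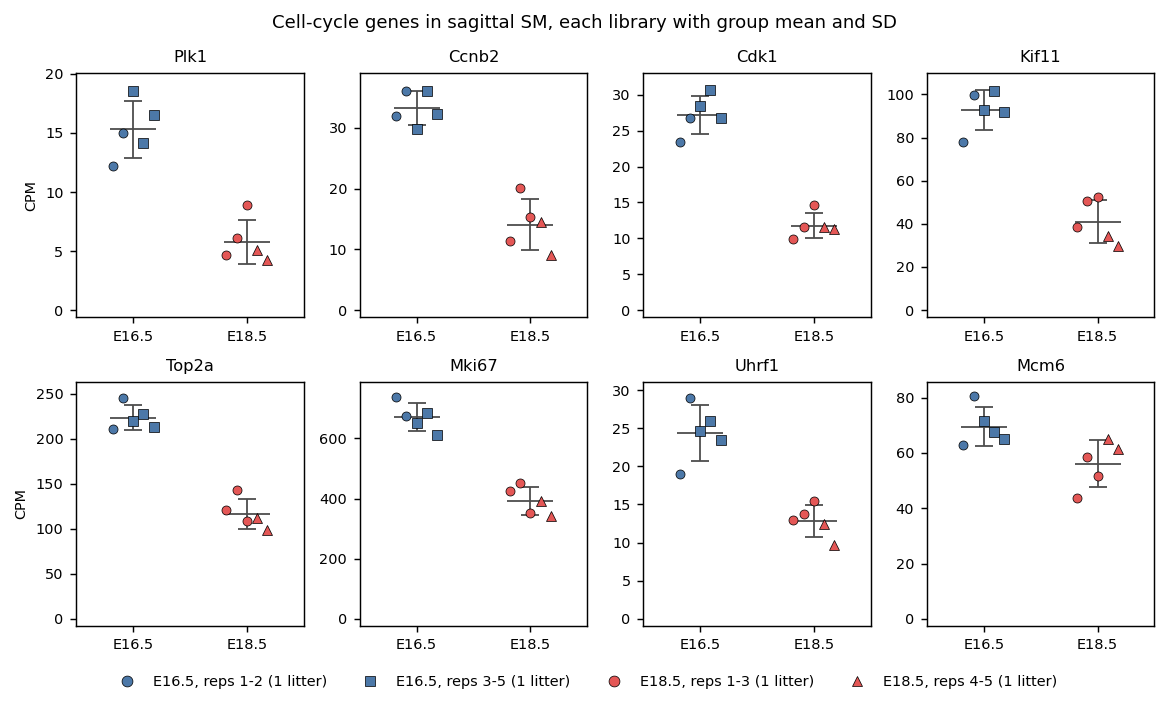
CPM of 8 cell-cycle genes in each sagittal SM library by age, with 1 point per embryo, shape and colour for the litter, and bars for the mean and SD (n = 5). For 7 of the 8 genes both E18.5 litters lie below all E16.5 libraries; for Mcm6, which did not pass the test, the ages overlap.

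Among other genes that fell were Bcl6, Ndnf, Rtl3, Col9a3 and Myh8. Bcl6, a transcriptional repressor (chr16:23965052-23988852, mm10), had 20.7, 26.9, 24.9, 24.9 and 24.2 CPM at E16.5 and 4.74, 7.49, 7.86, 5.59 and 6.93 CPM at E18.5 (log2 fold change -1.90, SE 0.29, edgeR adjusted p = 1.66e-05). Ndnf, a secreted glycoprotein, had 71.2, 72.3, 76.5, 93.7 and 75.6 CPM at E16.5 and 30.1, 28.6, 40.2, 31.0 and 22.4 CPM at E18.5 (log2 fold change -1.35, SE 0.29, edgeR adjusted p = 0.00293). Rtl3, a retrotransposon-derived gene on chromosome X, went from 101 ± 8.15 CPM at E16.5 to 41.5 ± 9.81 CPM at E18.5 (SD, n = 5) (log2 fold change -1.28, SE 0.27, edgeR adjusted p = 0.00274). The ages did not overlap for these 3 genes, which the rule that named them required. Bcl6 was called without either E18.5 litter, whereas Ndnf lost its call without replicates 1 to 3 and without replicates 4 and 5 (edgeR adjusted p = 0.11 and 0.0669) and Rtl3 was not called without replicates 4 and 5 (0.0743). Klf4, a zinc-finger transcription factor chosen here after its values were seen, fell by 1.17 (edgeR adjusted p = 0.000172) and was also called when either E18.5 litter was left out. Col9a3, a cartilage collagen chain, had 52.0, 73.1, 31.6, 41.4 and 62.8 CPM at E16.5 and 13.5, 17.6, 11.4, 9.76 and 7.75 CPM at E18.5 (log2 fold change -2.12, SE 0.47, edgeR adjusted p = 0.00472). Its call was lost without either E18.5 litter (edgeR adjusted p = 0.11 and 0.107). Of the 10 chondrocyte markers tested it was the 1 called, and 9 of the 10 were negative (median -0.79), with 5 negative and 1 positive at an unadjusted p under 0.05. Col2a1, the main collagen of cartilage, had 113 to 203 CPM at E16.5 and 36.2 to 48.4 CPM at E18.5 (log2 fold change -1.77, SE 0.56, edgeR adjusted p = 0.124). Acan, the cartilage proteoglycan and the positive member, had 136 to 174 CPM and 226.5 to 299.8 CPM (log2 fold change 0.74, SE 0.24, edgeR adjusted p = 0.143). Neither gene overlapped between the ages. All 12 chondrocyte markers summed to 378 to 576 CPM at E16.5 and 352 to 400.0 CPM at E18.5 (exact permutation p = 0.0317). This permutation p was 0.19 without E18.5 replicates 1 to 3 and 0.125 without replicates 4 and 5. It was 0.0556 to 0.0952 without E18.5 replicate 1, 2, 4 or 5 alone. Myh8, the perinatal myosin heavy chain, had 69.2, 79.2, 69.9, 68.1 and 71.6 CPM at E16.5 and 16.49, 15.4, 12.6, 17.9 and 17.9 CPM at E18.5 (log2 fold change -2.15, SE 0.59, edgeR adjusted p = 0.0434). This call was lost when any 1 library was left out (edgeR adjusted p 0.0792 to 0.126). Myh8 made up most of the skeletal muscle sum of 71.7 to 82.1 CPM at E16.5, and it was the 1 call among 6 muscle markers tested, of which 4 were positive (median 0.70). Myod1 and Tnnc2 had 0 counts in all 10 libraries, whereas the fast-muscle genes Tnnt3 and Mylpf had 12 to 49 and 5 to 26 counts. Counting was without regard to strand, so Myh8 and a transcript of the other strand cannot be told apart.

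Pdgfra, Tnc and Igf2bp1 fell by less. Pdgfra, the receptor that marks many mesenchymal progenitors, had 248, 259, 261, 298 and 257 CPM at E16.5 and 201, 200.5, 236, 161 and 136 CPM at E18.5 (log2 fold change -0.50, SE 0.14, edgeR adjusted p = 0.0366). Tnc, a matricellular glycoprotein, ranged from 1881 to 2309 CPM at E16.5 and from 1224 to 1723 CPM at E18.5 (log2 fold change -0.51, SE 0.14, edgeR adjusted p = 0.0419). Igf2bp1, a fetal RNA-binding protein, went from 49.1 ± 5.37 CPM at E16.5 to 31.0 ± 2.83 CPM at E18.5 (SD, n = 5) (log2 fold change -0.66, SE 0.18, edgeR adjusted p = 0.0419). Each of the 3 genes had no overlap between the ages. The call of Pdgfra was lost without E16.5 replicate 2, 3, 4 or 5 or E18.5 replicate 1, 4 or 5 (edgeR adjusted p up to 0.23). That of Tnc was lost without E16.5 replicate 2, 3, 4 or 5 or E18.5 replicate 1, 2 or 3 (edgeR adjusted p up to 0.216). That of Igf2bp1 was lost without E16.5 replicate 1, 3, 4 or 5 or E18.5 replicate 1, 2, 3, 4 or 5 (edgeR adjusted p up to 0.149). Of the 15 glucocorticoid-responsive genes 2 fell, Fkbp5 (-0.91, edgeR adjusted p = 0.0358) and Hif3a (-0.75, 0.00179), and none rose (median 0.06). Hif3a was not called without E18.5 replicates 4 and 5 (edgeR adjusted p = 0.0729). At an unadjusted p under 0.05, 2 of the 15 were positive and 3 negative. The call of Fkbp5 was lost without E16.5 replicate 1, 2, 3, 4 or 5 or E18.5 replicate 1, 3, 4 or 5 (edgeR adjusted p up to 0.131).

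Of the 104 rises, 11 were called both without E18.5 replicates 1 to 3 and without replicates 4 and 5. Socs2, a feedback inhibitor of growth hormone and other cytokine receptors (chr10:95385362-95417180, mm10), had 17.5, 12.6, 16.6, 14.8 and 16.8 CPM at E16.5 and 73.3, 73.8, 68.6, 82.9 and 79.4 CPM at E18.5 (log2 fold change 2.27, SE 0.23, edgeR adjusted p = 8.16e-12). Lrrc15, a membrane protein of TGF-beta-responsive fibroblasts, had 45.5, 47.8, 48.9, 48.5 and 45.4 CPM at E16.5 and 113, 153, 143, 169 and 281 CPM at E18.5 (log2 fold change 1.86, SE 0.29, edgeR adjusted p = 1.66e-05). Igfbp3, which binds insulin-like growth factors, had 163, 93.3, 152, 141 and 113 CPM at E16.5 and 419, 359, 307, 387 and 611 CPM at E18.5 (log2 fold change 1.65, SE 0.27, edgeR adjusted p = 4.2e-05). All E18.5 libraries of both litters were above all E16.5 libraries for these genes, which the rule that named them required. The other 8 were Rgs5, Podxl, Fabp4, Hivep3, Fap, Hivep2, Dst and Antxr1, of which the last 4 are named after their values were seen. Without E16.5 replicates 3 to 5, which left 4 rises in all, Socs2, Lrrc15 and Igfbp3 were called and Rgs5, Podxl, Fabp4 and Hivep3 were not, and Hivep3 was not called in limma-voom. Fap, a protease of activated fibroblasts, rose by 1.09, Antxr1, a collagen-binding receptor, by 0.60, Dst, a cytoskeletal linker, by 0.67, and the zinc-finger genes Hivep2 and Hivep3 by 1.02 and 1.72 on the log2 scale.

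In the IGF system, 2 of 14 genes rose and none fell (median 0.16), Igfbp3 and Igfbp7. Over all genes 0.526% rose. At an unadjusted p under 0.05, 2 of the 14 were positive and 0 negative, beside 3.62% and 3.08% of all genes. Igfbp7, a secreted protein of vessels and stroma, had 16.04, 7.86, 13.0, 13.0 and 12.4 CPM at E16.5 and 50.7, 44.8, 35.0, 29.4 and 37.8 CPM at E18.5 (log2 fold change 1.67, SE 0.30, edgeR adjusted p = 0.000288). It was not called without E18.5 replicates 1 to 3 (1.45, edgeR adjusted p = 0.0655). Igf2, the main fetal growth factor, had 347, 244, 217, 241 and 244 CPM at E16.5 and 341, 272, 386, 319 and 235 CPM at E18.5 (log2 fold change 0.27, SE 0.18, edgeR adjusted p = 1.0) and was not called, nor was the neighbouring imprinted transcript H19 (log2 fold change 0.25, SE 0.16, edgeR adjusted p = 1.0). The heterochronic genes Lin28b and Hmga2 were also not called, Lin28b at 0.189 to 0.513 CPM at E16.5 and 0.221 to 1.03 CPM at E18.5 and Hmga2 at -0.52 (edgeR adjusted p = 1.0). Hmga2 was called in the 10-library fit, and H19 with the replicate numbers as a block on those libraries.

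Of 12 pericyte and smooth muscle markers 2 rose, Rgs5 and Abcc9, and of 13 endothelial markers 1 rose, Pecam1, with no fall in either list. Over all genes 0.526% rose and 0.592% fell in the fit to 100 libraries. Of the pericyte and smooth muscle markers the 10-library fit called 4 rises and 0 falls. Of the endothelial markers it called 7 rises and 1 fall, beside 4.23% and 4.0% of all genes. Rgs5, a signalling regulator typical of pericytes, had 15.9, 9.89, 6.03, 5.60 and 16.9 CPM at E16.5 and 89.0, 78.3, 72.5, 52.4 and 68.3 CPM at E18.5 (log2 fold change 2.73, SE 0.53, edgeR adjusted p = 0.000645). Abcc9, a potassium channel subunit of pericytes, had 21.4, 13.8, 18.4, 13.5 and 22.0 CPM at E16.5 and 45.8, 42.2, 38.7, 29.9 and 45.7 CPM at E18.5 (log2 fold change 1.18, SE 0.31, edgeR adjusted p = 0.0307). Pecam1, an endothelial adhesion molecule, had 27.9, 17.7, 13.3, 14.8 and 18.52 CPM at E16.5 and 41.5, 37.6, 41.1, 28.04 and 34.3 CPM at E18.5 (log2 fold change 0.98, SE 0.26, edgeR adjusted p = 0.032). The E18.5 libraries were above all E16.5 libraries for the 3 genes, with replicate 4 the lowest of them in each. For Rgs5 the rule that named it required the absence of overlap. The median was 0.48 over the pericyte and smooth muscle markers and 0.86 over the endothelial ones, beside 0.01 for all genes. The endothelial sum was 202 to 296 CPM at E16.5 and 258 to 362 CPM at E18.5 (exact permutation p = 0.0397) and the pericyte and smooth muscle sum 469 to 542 CPM and 510 to 776 CPM (p = 0.0159). The p of the endothelial sum was 0.0635 to 0.0714 without E16.5 replicate 2, 3 or 4 or E18.5 replicate 1, 2 or 3. Without E18.5 replicates 1 to 3 the endothelial sum differed by 0.13 on the log2 scale (exact permutation p = 0.429), Abcc9 and Pecam1 were not called, and Abcc9 was not called without replicates 4 and 5 either. Podxl, a sialomucin of endothelium and progenitors, had 9.24, 6.72, 3.85, 4.40 and 6.27 CPM at E16.5 and 32.4, 23.1, 21.8, 12.8 and 27.3 CPM at E18.5 (log2 fold change 1.94, SE 0.35, edgeR adjusted p = 0.00022). Fabp4, a fatty-acid carrier of adipocytes and capillary endothelium, had 5.33, 5.64, 6.44, 8.996 and 6.06 CPM at E16.5 and 14.9, 28.1, 20.9, 22.8 and 34.4 CPM at E18.5 (log2 fold change 1.90, SE 0.37, edgeR adjusted p = 0.000747). Cd36, a fatty-acid receptor of the same cells, went from 1.89 ± 0.741 CPM at E16.5 to 7.81 ± 2.14 CPM at E18.5 (SD, n = 5) (log2 fold change 2.04, SE 0.40, edgeR adjusted p = 0.000747). The ages did not overlap for Podxl, Fabp4 or Cd36. For Podxl and Fabp4 the rule that named them required this. Cd36 was not called without E18.5 replicates 1 to 3 (1.56). Acta2 and Tagln, contractile genes of smooth muscle, were not called (0.11 and 0.30, edgeR adjusted p = 1.0 for both).

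Of the 21 glycolysis and hypoxia genes 2 rose and none fell (median 0.35). Over all genes 0.526% rose. At an unadjusted p under 0.05, 7 of the 21 were positive and 0 negative, beside 3.62% and 3.08% of all genes. Hk2, which phosphorylates glucose, had 26.9, 27.6, 31.1, 24.03 and 21.7 CPM at E16.5 and 32.9, 59.2, 40.6, 68.7 and 61.5 CPM at E18.5 (log2 fold change 1.00, SE 0.22, edgeR adjusted p = 0.00447). Vegfa, the angiogenic growth factor, had 57.4, 63.3, 72.8, 80.5 and 70.7 CPM at E16.5 and 104, 125, 111, 121 and 95.0 CPM at E18.5 (log2 fold change 0.69, SE 0.16, edgeR adjusted p = 0.00569). Neither gene overlapped between the ages, and each lost its call without some litters. Hk2 was not called without E18.5 replicates 4 and 5 (0.74) or E16.5 replicates 3 to 5, and Vegfa without E18.5 replicates 1 to 3 (0.67), without either E16.5 litter or with total counts in place of TMM. Among other rises named by size were the methyltransferase Prmt8 (2.93), Mamdc2 (2.14), the citrate transporter Slc13a5 (2.17), Enpp1, which makes the mineralization inhibitor pyrophosphate (1.65), Lrrn4cl (1.64), Tgfbi, a secreted matrix protein (1.63), and Gucy1a1, a subunit of the nitric oxide receptor (2.30). None of these 7 was called without E18.5 replicates 1 to 3, where their values were 1.94, 1.59, 1.64, 1.62, 1.38, 1.92 and 0.91, and in limma-voom Prmt8 alone of the 7 was called. Slc13a5 was also lost without E16.5 replicate 2, 3, 4 or 5 or E18.5 replicate 1 (edgeR adjusted p up to 0.281). Tgfbi was lost without E16.5 replicate 3 or 4 (edgeR adjusted p up to 0.0572). Lrrn4cl was lost without E16.5 replicate 2, 3, 4 or 5 or E18.5 replicate 1, 2, 3 or 5 (edgeR adjusted p up to 0.214).

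Matrix genes called in the fit to 100 libraries are given beside 0.526% of all genes that rose and 0.592% that fell. Of 27 collagen chains 2 rose and none fell (median 0.05), Col15a1, a basement membrane collagen, and Col24a1, a fibrillar collagen of bone. At an unadjusted p under 0.05, 5 chains were positive and 1 negative, beside 3.62% and 3.08% of all genes. The 10-library fit called 5 rises and 2 falls of these chains, beside 4.23% and 4.0% of all genes. Col24a1 had 109.6, 93.3, 91.8, 103 and 81.3 CPM at E16.5 and 235, 154, 151, 164 and 175 CPM at E18.5 (log2 fold change 0.88, SE 0.21, edgeR adjusted p = 0.0135). It was not called without E16.5 replicate 5 or E18.5 replicate 1 (edgeR adjusted p up to 0.12), nor without either E18.5 litter (0.322 and 0.0517). Col15a1 went from 11.1 ± 4.16 CPM at E16.5 to 21.8 ± 5.06 CPM at E18.5 (SD, n = 5) (log2 fold change 0.98, SE 0.22, edgeR adjusted p = 0.00661). It was not called without E16.5 replicate 3 or 4 or E18.5 replicate 3 (edgeR adjusted p up to 0.0667), nor without E18.5 replicates 1 to 3 together (0.422). Of 22 elastic fibre and crosslinking genes 1 rose and none fell (median -0.16), with 1 positive and 1 negative value at an unadjusted p under 0.05. In the 10-library fit 6 of the 22 rose and 5 fell, beside 4.23% and 4.0% of all genes. The gene called in both fits, Loxl2, which crosslinks collagen, had 142, 142, 152, 139 and 140.4 CPM at E16.5 and 224, 229, 218, 245 and 280.4 CPM at E18.5 (log2 fold change 0.74, SE 0.17, edgeR adjusted p = 0.00731). Loxl2 was higher in every E18.5 library than in every E16.5 library, and was not called without E18.5 replicates 4 and 5 (edgeR adjusted p = 0.112). Sparcl1, a matricellular protein that vessels also make, went from 41.7 ± 6.89 CPM at E16.5 to 86.8 ± 10.1 CPM at E18.5 (SD, n = 5) (log2 fold change 1.06, SE 0.23, edgeR adjusted p = 0.00314), and was not called without E18.5 replicates 1 to 3 (0.303). Col1a1 (0.21), Postn (-0.19), Eln (0.31) and Dcn (0.08), which encode the main fibrillar collagen, a periosteal matricellular protein, elastin and a proteoglycan, were not called (edgeR adjusted p = 1.0 for each). Eln was called in the 10-library fit (edgeR adjusted p = 0.018), with the replicate block (0.0268) and in limma-voom with the litter block (0.0217).

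The osteoblast list gave 1 rise and no fall among 24 genes (median 0.23), with 6 positive and 0 negative values at an unadjusted p under 0.05. Over all genes 0.526% rose, and at an unadjusted p under 0.05 3.62% were positive and 3.08% negative. The 10-library fit called 5 rises and 1 fall of the list, beside 4.23% and 4.0% of all genes. Without E18.5 replicates 4 and 5 there were 4 rises (median 0.40), beside 115 rises among all 19768 genes. Ibsp, a matrix protein of young osteoblasts (chr5:104299171-104311469, mm10), had 42.0, 11.3, 9.48, 11.4 and 10.5 CPM at E16.5 and 302, 87.6, 21.4, 107 and 42.0 CPM at E18.5 (log2 fold change 2.73, SE 0.74, edgeR adjusted p = 0.0402). The spread was wide: E18.5 replicate 3 lay below E16.5 replicate 1, and the call was lost without E16.5 replicate 2, 3, 4 or 5 or E18.5 replicate 1, 2 or 4 (edgeR adjusted p up to 0.436). It was lost too without E18.5 replicates 1 to 3 (edgeR adjusted p = 0.712) and in limma-voom with or without the litter block (0.0509 and 0.566). Runx2 had 439.5, 442, 448, 397 and 401 CPM at E16.5 and 431, 415, 413, 366 and 360.3 CPM at E18.5 (log2 fold change -0.10, SE 0.13, edgeR adjusted p = 1.0). Sp7, which acts after Runx2, had 23.3, 22.3, 19.8, 18.1 and 19.4 CPM at E16.5 and 30.4, 26.03, 23.5, 13.1 and 12.4 CPM at E18.5 (log2 fold change 0.04, SE 0.29, edgeR adjusted p = 1.0). It was high in E18.5 replicates 1 to 3 and low in replicates 4 and 5. Its value was -0.67 without replicates 1 to 3 and -0.04 with total counts in place of TMM. Alpl, the alkaline phosphatase, split the E18.5 litters in the same way, at 32.6, 18.1, 16.8, 6.76 and 2.16 CPM, and was 1 of 5 genes that differed between them at an adjusted p under 0.05 (log2 difference 2.34, edgeR adjusted p = 0.00577). Spp1, of mature osteoblasts, went from 13.3 ± 2.53 CPM at E16.5 to 18.9 ± 2.56 CPM at E18.5 (SD, n = 5) (log2 fold change 0.51, SE 0.62, edgeR adjusted p = 1.0). It was called in the 10-library fit. Sfrp4, a secreted Wnt antagonist and the 1 call among 33 Wnt pathway genes, had 0.321, 0.127, 0, 0.629 and 0.211 CPM at E16.5 and 2.21, 1.58, 2.35, 0.846 and 3.43 CPM at E18.5 (log2 fold change 2.98, SE 0.79, edgeR adjusted p = 0.032). The highest E16.5 value was below the lowest at E18.5, and the call was lost without E16.5 replicate 1, 2, 3 or 5 or E18.5 replicate 1, 3 or 5 (edgeR adjusted p up to 0.152), without E18.5 replicates 1 to 3 or 4 and 5 (0.249 and 0.0796) and in limma-voom (0.165).

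Of 18 hedgehog pathway genes Hhip was the 1 called (median -0.02), with 3 positive values and 0 negative ones at an unadjusted p under 0.05, and it was high at E18.5 in 1 litter. Hhip (chr8:79965851-80058006, mm10) had 5.58, 9.38, 2.76, 2.71 and 2.18 CPM at E16.5 and 22.0, 21.9, 12.4, 4.55 and 5.27 CPM at E18.5 (log2 fold change 1.54, SE 0.37, edgeR adjusted p = 0.011). E18.5 replicates 1 to 3 were above every E16.5 library, while replicates 4 and 5 were within the E16.5 range, and without replicates 1 to 3 the log2 fold change was 0.14 (edgeR adjusted p = 1.0). The call was also lost without E16.5 replicate 3, 4 or 5 or E18.5 replicate 1 or 2 (edgeR adjusted p up to 0.127). Ptch1, the hedgehog receptor and a target of the pathway, had 65.8, 78.6, 52.9, 60.5 and 52.9 CPM at E16.5 and 115, 117, 79.0, 40.9 and 41.8 CPM at E18.5 (log2 fold change 0.34, SE 0.21, edgeR adjusted p = 1.0). Gli1, another target, had 13.5, 16.2, 10.1, 17.9 and 10.5 CPM at E16.5 and 35.5, 24.9, 18.52, 11.4 and 9.59 CPM at E18.5 (log2 fold change 0.55, SE 0.31, edgeR adjusted p = 0.88). E18.5 replicates 1 to 3 again lay above every E16.5 library for both genes, while replicates 4 and 5 were within or below the E16.5 range, and without replicates 1 to 3 the log2 fold changes were -0.57 and -0.35. The ligand Ihh was at most 1.49 CPM in any library (log2 fold change 0.60, SE 0.70, edgeR adjusted p = 1.0). Hhip, Ptch1 and Gli1 were not among the 5 genes called between the E18.5 litters. Lepr, the leptin receptor of skeletal stromal cells, had 13.7, 19.3, 8.96, 11.6 and 8.17 CPM at E16.5 and 44.8, 42.4, 30.9, 13.3 and 11.7 CPM at E18.5 (log2 fold change 1.21, SE 0.29, edgeR adjusted p = 0.0116), with 0.04 without replicates 1 to 3. Mycn, a growth-promoting transcription factor, had 1.09, 1.90, 0.690, 0.566 and 0.775 CPM at E16.5 and 3.83, 5.49, 6.32, 0.195 and 1.59 CPM at E18.5 (log2 fold change 1.78, SE 0.44, edgeR adjusted p = 0.0135). The value of Mycn was -0.15 without E18.5 replicates 1 to 3, and its call was lost without E16.5 replicate 3, 4 or 5 or E18.5 replicate 2 or 3 (edgeR adjusted p up to 0.122). It was also lost in the 10-library fit (edgeR adjusted p = 0.0626), with the replicate block on it (0.0741) and in limma-voom with or without the litter block (0.541 and 0.843). Twist1, a transcription factor needed to keep sutures open, had 96.7, 110.5, 128, 132 and 113 CPM at E16.5 and 104, 112, 80.2, 100 and 105 CPM at E18.5 (log2 fold change -0.21, SE 0.18, edgeR adjusted p = 1.0).

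Neural genes were among the largest fold changes and were high in the same litter. Tubb3, a neuronal tubulin, had 0.128, 1.21, 0, 0.126 and 0.986 CPM at E16.5 and 14.8, 11.7, 27.5, 0.0651 and 0 CPM at E18.5 (log2 fold change 4.46, SE 0.91, edgeR adjusted p = 0.00138). Fabp7, a fatty-acid carrier of radial glia, had 0.0642, 0.127, 0, 0.0629 and 0.493 CPM at E16.5 and 14.9, 16.6, 21.1, 0.455 and 0.0635 CPM at E18.5 (log2 fold change 6.11, SE 1.48, edgeR adjusted p = 0.0116). Dpysl5, which acts in axon growth, had 3.34, 4.63, 3.10, 3.08 and 7.61 CPM at E16.5 and 47.6, 48.4, 76.3, 1.69 and 1.84 CPM at E18.5 (log2 fold change 3.01, SE 0.72, edgeR adjusted p = 0.0104). In each gene E18.5 replicates 1 to 3 were far above all other libraries and replicates 4 and 5 were no higher than the highest E16.5 library. Tubb3 and Map2, a dendritic microtubule protein, were also called between the E18.5 litters (log2 difference 8.80 and 3.75, edgeR adjusted p = 0.00759 and 0.00404). Opcml and Smad9 were the other 2 of the 5, and all 5 were higher in replicates 1 to 3. These 5 genes were named after their values were seen, and they are 0.0253% of genes tested. The same comparison gave 573 genes at an unadjusted p under 0.05 (2.9%), 53 calls by DESeq2 and 17 by limma-voom.

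**Figure D4:**
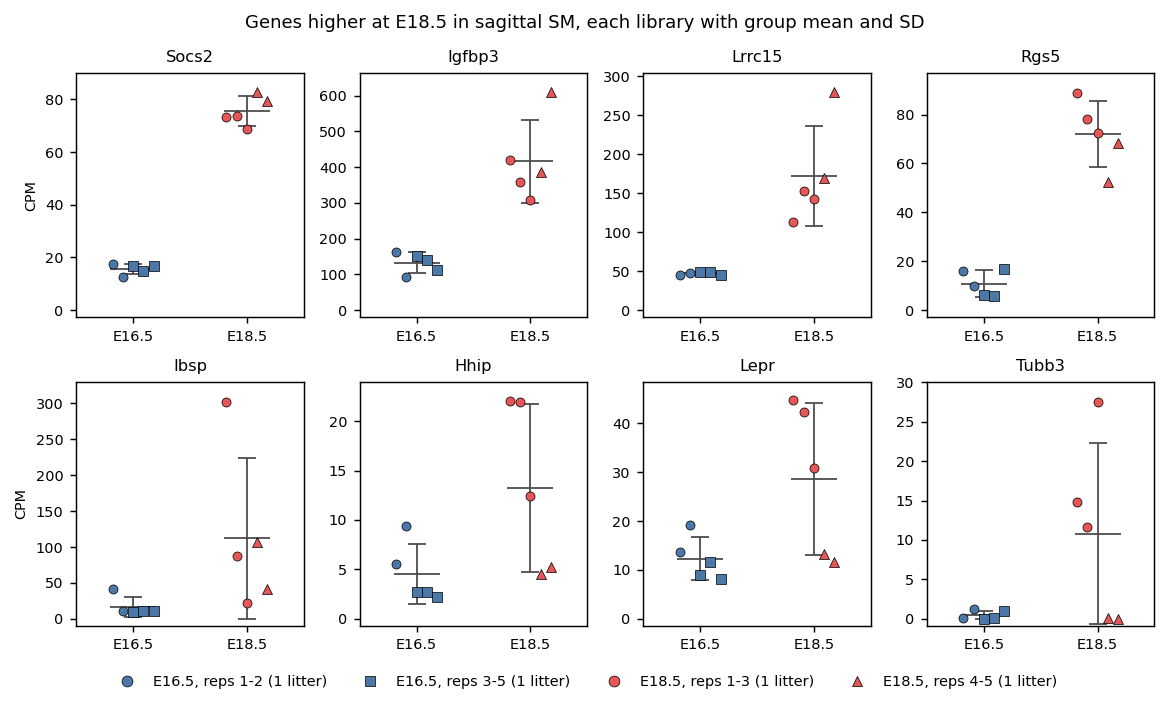
CPM of 8 genes with a positive age change in each sagittal SM library, with 1 point per embryo, shape and colour for the litter, and bars for the mean and SD (n = 5). In the upper row both E18.5 litters lie above all E16.5 libraries, which the rule that named those genes required. In the lower row Hhip, Lepr and Tubb3 are high in E18.5 replicates 1 to 3 and not in replicates 4 and 5. Ibsp is spread from 21.4 to 302 CPM.

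For the remaining lists, calls in the fit to 100 libraries are given beside 1.12% of all genes called. Of 28 suture mesenchyme genes Igfbp3 and Hhip rose (median -0.18), of 23 tendon-like and matricellular genes Sparcl1 rose and Tnc fell (median -0.08), and of 8 heterochronic genes Mycn rose and Igf2bp1 fell (median -0.16). The 10-library fit called 5 rises and 7 falls of the suture mesenchyme genes, 4 and 4 of the tendon-like genes, 0 and 2 of the heterochronic genes, and 4 and 2 of the 19 TGF-beta pathway genes, beside 8.23% of all genes. It called 5 rises and no fall in the Wnt list, 7 and 0 in glycolysis and hypoxia, 3 and 1 in the IGF system, 3 and 0 in the hedgehog list and 3 and 2 in the adipogenic list. In the glucocorticoid-responsive list it called 2 rises and 4 falls, among chondrocyte markers 1 and 6, among fibroblast progenitor genes 1 and 2 and in the craniosynostosis list 3 and 4. Tgfbi was the 1 call among 19 TGF-beta pathway genes, Fabp4 and Cd36 were the calls among 9 adipogenic genes, and Pdgfra was the 1 call among 14 fibroblast progenitor genes and among 29 genes of the study's own craniosynostosis list. In 10 of the lists, 176 genes in all, edgeR called no member: kinase inhibitors and quiescence, imprinted growth genes, small leucine-rich proteoglycans, matrix proteases and their inhibitors, BMP and GDF, FGF and ERK, Notch, retinoic acid, immediate early and heat shock, and complement and innate defence. Over all genes edgeR called 1.12%. At an unadjusted p under 0.05 there were 25 of the 176, beside 6.7% of all genes. DESeq2 called 2 and limma-voom 0 of the 176, beside 1.47% and 0.885% of all genes. The 10-library fit called 29, beside 8.23% of all genes, and 8 of the 29 were among the 21 matrix proteases and inhibitors. The median log2 fold changes of the 10 lists lay between -0.04 and 0.17. Of the named genes called in the age change, limma-voom did not call Sgo2a, Ndc80, Shcbp1, Pmf1, Mki67, Hhip, Col24a1, Loxl2 or Cd36 either (adjusted p 0.0595 to 0.42), and DESeq2 did not call Myh8 (adjusted p = 0.156). Without E16.5 replicates 3 to 5 the calls of Uhrf1, Ndnf, Rtl3, Col9a3, Igfbp7, Hif3a, Col15a1, Col24a1, Loxl2 and Sparcl1 were also lost.

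Whether the change with age differed from that of the adjoining bone edge was tested against the parietal OF libraries of the same embryos. In the OF 317 genes were called (1.6%), 228 up (1.15%) and 89 down (0.45%). The difference between the age changes passed for 6 genes (0.0304%), 2 positive (0.0101%) and 4 negative (0.0202%), with 682 at an unadjusted p under 0.05 (3.45%). SM and OF libraries come from the same embryos by label. With the embryo as a block 957 differences passed (4.84%), 435 positive and 522 negative, the 6 among them. That fit held the sagittal libraries alone, and without the block they gave 603 differences, 268 positive and 335 negative. Leaving out a single library left 0 to 6 differences, with none left without E16.5 replicate 3, E16.5 replicate 4 or E18.5 replicate 3. Col4a1, a basement membrane collagen, had 216, 210.4, 197.8, 226 and 235 CPM at E16.5 and 218, 224, 326, 229 and 271 CPM at E18.5 in the SM, against 63.2 to 113 CPM at E16.5 and 160.2 to 289 CPM at E18.5 in the OF (difference -1.29, SE 0.25, edgeR adjusted p = 0.0165). Anxa2, a membrane-binding protein, had 282, 314, 356, 355 and 327 CPM at E16.5 and 168, 177, 188, 203 and 216 CPM at E18.5 in the SM, and in the OF 415 to 506 CPM and 506 to 672 CPM (difference -1.19, SE 0.24, edgeR adjusted p = 0.0165). Anxa2 fell in the SM with no overlap between the ages (log2 fold change -0.78, SE 0.17, edgeR adjusted p = 0.00314), and its OF value was 0.41 (edgeR adjusted p = 0.322). Aplnr, the apelin receptor of sprouting vessels, ranged over 5.12 to 11.8 CPM at E16.5 and 8.07 to 31.7 CPM at E18.5 in the SM, and over 0.845 to 5.13 CPM and 26.9 to 49.9 CPM in the OF (difference -2.63, edgeR adjusted p = 0.0394). Rerg, a Ras-like growth inhibitor, ranged over 11.1 to 17.6 CPM at E16.5 and 2.48 to 9.35 CPM at E18.5 in the SM, and over 28.7 to 36.8 CPM and 36.6 to 55.4 CPM in the OF (difference -1.68, edgeR adjusted p = 0.0401). Epha4, a guidance receptor at suture boundaries, and Lepr were the 2 positive differences (1.56 and 1.89, edgeR adjusted p = 0.0165 and 0.0394). In the OF Epha4 was at 35.9 to 43.6 CPM at E16.5 and 12.6 to 33.0 CPM at E18.5, and Lepr at 128 to 178 CPM and 76.7 to 112 CPM. In the SM both were higher in E18.5 replicates 1 to 3 than in replicates 4 and 5. Without replicates 1 to 3 at E18.5, 1 of these 6 differences passed, that of Rerg. In limma-voom Lepr, Aplnr and Rerg did not pass (adjusted p = 0.491, 0.566 and 0.137).

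Mitotic genes had values nearer 0 in the OF. Of the 26 G2 and M phase genes 1 fell in the OF (median -0.38, against -1.02 in the SM), and the difference was negative for all 26 (median -0.64). Over all genes 0.45% fell in the OF. The summed level of the list in the OF was 3399 to 4148 CPM at E16.5 and 2455 to 3316 CPM at E18.5, also without overlap. The OF sums were above those of every SM library at both ages. None of the 26 differences passed in the edgeR fit to 100 libraries, where 15 had an unadjusted p under 0.05, nor in DESeq2 or limma-voom. In an edgeR fit to the sagittal libraries alone 15 passed without the block and 16 with the embryo as a block. For the S phase list none of 23 differences passed in the fit to 100 libraries, with 2 at an unadjusted p under 0.05. With the block 2 passed, beside 4.84% of all genes, and 10 had an unadjusted p under 0.05, beside 3484 of the 19768 genes. In the sagittal libraries alone without the block 1 passed and 9 had an unadjusted p under 0.05.

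Whether the sagittal suture differed from the others was tested against the mean age change of the coronal, frontal and lambdoid SM, captured from other embryos. By the reading of the litter labels above, 1 of those libraries, lambdoid SM E18.5 replicate 5, came from the litter of sagittal E18.5 replicates 1 to 3, and the fit took it as independent of them. The difference passed for 120 genes (0.607%), 98 upward (0.496%) and 22 downward (0.111%). Limma-voom turned that balance over, with 9 positive and 28 negative of 37 calls (0.187%). Without the lambdoid library of the shared litter, an alternative chosen after seeing the data, edgeR called 132, 111 positive and 21 negative. For 49 of the 98, E18.5 replicates 1 to 3 were above all E16.5 sagittal SM libraries and replicates 4 and 5 were not, and without replicates 1 to 3 the comparison called 2 genes in all. Leaving out a single library left 59 to 124, with 59 without E16.5 replicate 4 or E18.5 replicate 1. The largest positive differences among genes over 10 CPM were neural, Dcx (7.58), Tubb3 (6.25), Fabp7 (6.00), Dpysl5 (4.37) and Cd24a (3.33), followed by the transmembrane gene Shisa6 (3.27), whose E18.5 libraries of both litters were above all E16.5 libraries although its own age change was not called (2.07, edgeR adjusted p = 0.197). The difference of Shisa6 passed in 1 of the 10 fits with 1 library left out (edgeR adjusted p up to 0.124) and in neither DESeq2 nor limma-voom. In limma-voom Dcx, Tubb3, Fabp7, Dpysl5 and Cd9 did not pass either (adjusted p 0.159 to 0.386). The largest negative ones were Syne3 (-1.59), Gpx3 (-1.59), Crip1 (-1.45), Coro1b (-1.30), Cd9 (-1.28) and Txnip (-1.12). With 1 library left out, Fabp7 and Gpx3 passed in 2 of 10 fits, Cd9 in 1, Coro1b in 5 and Crip1 in 6, and Dcx, Tubb3, Dpysl5, Cd24a, Syne3 and Txnip in all 10, each by edgeR. Without E18.5 replicates 1 to 3 the differences of Dcx and Tubb3 changed sign, and those of Fabp7, Dpysl5, Cd24a and Syne3 did not pass. Without E16.5 replicates 3 to 5 edgeR called 0 differences, with 636 genes at an unadjusted p under 0.05. For Gpx3, an extracellular peroxidase, the sagittal SM went from 13.9 ± 1.81 CPM at E16.5 to 11.2 ± 3.39 CPM at E18.5 (SD, n = 5), which was not called, while the age change was 2.12 in coronal, 1.15 in frontal and 0.55 in lambdoid SM. Hk2 and Tnc also differed, at 1.30 and -0.85 (edgeR adjusted p = 0.00201 and 0.00149).

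None of the 26 G2 and M phase genes passed this test in edgeR, DESeq2 or limma-voom, where 5, 5 and 3 had an unadjusted p under 0.05 (in edgeR 7.2% of all genes did; median difference -0.32 in edgeR). Of them 8 fell in coronal, 16 in frontal and 23 in lambdoid SM, with medians of -0.32, -0.77 and -1.07 beside -1.02 in sagittal SM. Socs2 had age changes of 2.74, 3.15 and 2.55 in coronal, frontal and lambdoid SM beside 2.27 in sagittal SM. For Hhip these were -0.15, 0.24 and -0.82 beside 1.54 (difference 1.79, SE 0.42, edgeR adjusted p = 0.0172), and the sagittal value was 0.14 without E18.5 replicates 1 to 3.

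**Figure D5:**
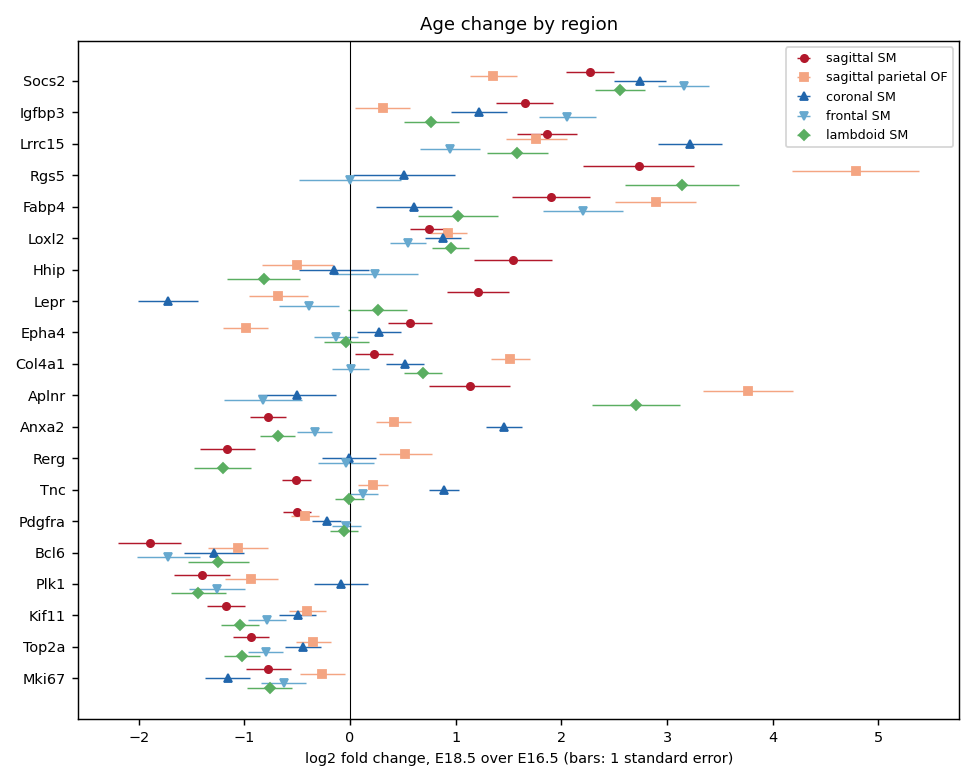
Log2 fold change of E18.5 over E16.5 for 20 genes (horizontal axis, bars 1 SE from the fit to 100 libraries) in sagittal SM, sagittal parietal OF and the SM of 3 other sutures, each over 5 embryos an age. Socs2 is positive in all 5 regions, the mitotic genes at the bottom are negative or near 0 in all, and Anxa2 and Rerg have opposite signs in sagittal SM and its OF.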

How the data were processed

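Laser-captured tissue of single wild-type embryos was profiled by the authors, with PicoPure RNA extraction, Ovation RNA-Seq V2 amplification and Nextera XT libraries. Per the labels and the submitters' processing notes, reads were trimmed with cutadapt, aligned to mm10 with STAR 2.5.3a and counted over GENCODE vM22 exons with featureCounts 1.6.4, in pairs and without strand. The deposited values are raw counts for 55487 genes in each library, of which 55394 had a symbol. Replicates were not pooled. Counting without strand means that overlapping and antisense genes cannot be told apart, and amplified reads are not independent molecules.

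Here the counts of 100 laser-captured libraries in 20 groups (5 an age for each region) were fitted together with edgeR 4.0.16 (R 4.3.3), TMM scaling and quasi-likelihood tests, with 80 residual degrees of freedom. Genes at 1 CPM or more in over 10% of libraries were tested, 19768 in all, and calls were made at a Benjamini-Hochberg adjusted p under 0.05. Contrasts were the age change in sagittal SM, that change less the change in the sagittal parietal OF, that change less the mean change in the SM of the other sutures, and the difference between the E18.5 litters. Marker sums were tested on log2(CPM + 1) by exact two-sided permutation over 252 arrangements. Same-numbered SM and OF libraries carry the same embryo label, and their deviations from group means correlated at 0.058 to 0.29 at E16.5 and 0.096 to 0.467 at E18.5. The named genes were the 15 rises and 15 falls of largest size among called genes with a mean of at least 10 CPM at the higher age, no overlap between the ages and a symbol other than a clone name, up to 2 called genes a direction from each pathway list (at least 1 CPM), a set of key genes, and the 6 largest differences a direction. Other list members, and genes singled out in the text, were named after their values were seen. The members and lists were chosen with earlier results of these data known. Alternatives used DESeq2 1.42.0, limma 3.58.1 (voom), other scalings and filters, the 10 libraries alone, replicate and litter blocks, and omission of each library or litter. The fitting steps were tested on simulated data. Complete-suture, second-library and single-cell samples were not used here. RefSeq promoter windows of GRCm38.p6 were matched by symbol.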

Additional observations from a re-analysis of the deposited data

Results flagged for a closer look

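Among 214 groups of 5 sagittal SM libraries (a marker sum or the CPM of a named gene at one age), 19 held a highest or lowest library whose gap to its neighbour, as a share of the group's range, was past Dixon's critical value for 5 values. The rule's nominal rate by chance is about 1 in 20 groups. At E18.5 these were the erythroid sum of 4857 CPM and the haemoglobin share of 0.493% in replicate 3, the osteoclast sum of 258 CPM, Col24a1 at 235 CPM and Coro1b at 21.5 CPM. At E16.5 they were the dura and meninges sum of 84.1 CPM, the skeletal muscle sum of 82.1 CPM, Slc13a5 at 5.71 CPM, Hivep3 at 5.52 CPM, Ndnf at 93.7 CPM, Ibsp at 42.0 CPM, Loxl2 at 152 CPM, Pdgfra at 298 CPM, Ihh at 0.761 CPM, Spp1 at 17.6 CPM, Igf2 at 347 CPM, Lin28b at 0.513 CPM, Dcx at 3.87 CPM and Fabp7 at 0.493 CPM.

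The age change of 6 named genes differed from that of the parietal OF by the test of the difference in edgeR, with log2 differences of 1.89 for Lepr, 1.56 for Epha4, -2.63 for Aplnr, -1.68 for Rerg, -1.29 for Col4a1 and -1.19 for Anxa2. The age change of 21 named genes differed in the same way from the mean of the other sutures. The positive differences were 7.58 for Dcx, 6.25 for Tubb3, 6.00 for Fabp7, 4.37 for Dpysl5, 3.33 for Cd24a, 3.27 for Shisa6, 3.05 for Slc13a5, 2.67 for Prmt8, 2.63 for Gucy1a1, 1.92 for Mycn, 1.83 for Lepr, 1.79 for Hhip and 1.30 for Hk2. The negative ones were -1.59 for Syne3, -1.59 for Gpx3, -1.45 for Crip1, -1.30 for Coro1b, -1.28 for Cd9, -1.12 for Txnip, -0.92 for Anxa2 and -0.85 for Tnc. Neural and erythroid sums were higher in E18.5 replicates 1 to 3 than in every other sagittal SM library, and their part in these differences was not tested.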

How the results depend on the processing

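The 221 calls of the age change in sagittal SM became 1626 when the 10 libraries were fitted alone, 1549 with a replicate block on them, 1032 with litter as a random block in limma-voom, 59 without E18.5 replicates 1 to 3, 112 without E16.5 replicates 1 and 2 and 22 without E16.5 replicates 3 to 5, and lay between 133 and 207 without single libraries. The calls with the litter block included 69 of the 104 rises and all 117 falls. The replicate numbers of the ages do not pair embryos: deviations of same-numbered libraries correlated at -0.05 to 0.23, and 1 of 5 E16.5 and 1 of 5 E18.5 libraries matched its own number best. The 6 differences from the parietal OF became 957 with the embryo as a replicate block, 603 in the groups compared alone, 709 with the litter block, 16 in DESeq2, 0 without TMM (619 at an unadjusted p under 0.05), 1 without E18.5 replicates 1 to 3, 3 without E16.5 replicates 1 and 2 and 0 without E16.5 replicates 3 to 5, and 0 to 6 without single libraries. The 120 differences from the other sutures became 199 in DESeq2, 37 in limma-voom, 2 without E18.5 replicates 1 to 3, 54 without E16.5 replicates 1 and 2, 0 without E16.5 replicates 3 to 5 and 32 with litters weighted equally, 59 to 124 without single sagittal libraries and 132 without lambdoid SM E18.5 replicate 5, which cost the call of Cd9 (-1.26). The 5 differences between the E18.5 litters became 53 in DESeq2, 17 in limma-voom, 10 without TMM and 15 without a low-count filter. The causes of these shifts were not tested, and leaving out libraries changed the group size together with the embryos compared.

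Without E18.5 replicates 1 to 3 the sign on the log2 scale changed for 10 values: Mycn -0.15, Gli1 -0.35, Ptch1 -0.57, Ihh -0.78, Sp7 -0.67, Dcx -0.14 and Tubb3 -1.79 against the other sutures, the suture mesenchyme sum 0.011, the erythroid sum -1.66 and the haemoglobin share -1.82. Without single libraries the erythroid sum lay between -0.25 (without E18.5 replicate 3) and 0.92, and the haemoglobin share between -0.34 (without E18.5 replicate 3) and 0.872. Without E18.5 replicates 4 and 5 the osteoblast sum was -0.0322. Ihh was -0.11 in limma-voom and -0.19 with the litter block. Sp7, at 0.04, was -0.059 in limma-voom, -0.037 without TMM, -0.038 with the replicate block, -0.12 without E16.5 replicates 3 to 5, -0.18 with litters weighted equally, -0.084 with the litter block, and -0.14 to 0.18 without single libraries. In all, 1547 values of named genes kept direction and side of the threshold, 432 lost and 6 gained a call, and 19 changed sign.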
